A study of Mus musculus with 4 samples.

Results

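Gata1 chromatin immunoprecipitation followed by sequencing (ChIP-seq) was compared with control IgG in total mouse bone marrow, in a study of the part of Ldb1 complexes in erythroid gene activation. The regions described are all sites of the authors' Gata1 list on chromosomes 1 to 19, 5620 of the 5691 sites listed for Gata1 and of the 16252 sites listed for the 3 antibodies of the series. Other antibodies were not used to select them. Of the 4 libraries of the series 2 are used, 1 for Gata1 (antibody ab11852, Abcam) and 1 for IgG. Both came from freshly isolated bone marrow cells that were fixed with formaldehyde and sonicated. The labels name no strain, age or treatment. There was 1 library a side and no replicate, so no difference has a replicate check, and every interval given is a 95% interval for the counting error alone. The libraries carried no molecular identifiers, so amplified copies of 1 molecule can count as several tags.

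Gata1 is a zinc finger transcription factor that binds GATA motifs. It is required for the maturation of red cell precursors and megakaryocytes and is also expressed in mast cells and eosinophils. It binds promoters and distal enhancers, often beside Tal1 and the adaptor Ldb1, and can activate or repress the genes there. Control IgG precipitates chromatin without a chosen target and gives the background of the procedure. Total bone marrow is a mixture of cell types, so more cells with Gata1 at a site and more Gata1 per cell cannot be told apart. The submitters' processing notes name mm8 as the mouse assembly behind all positions. No genes or sequences were assigned to them, since a genome and annotation of that assembly were not used here.

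On chromosomes 1 to 19 the Gata1 library held 7525404 tags, of which 6690786 had a distinct position and strand. The IgG library held 7037690 tags and 5433901 distinct ones. Unless stated otherwise, 1 tag was kept per position and strand, a tag was placed at its centre, and levels are distinct tags per 1000000 distinct tags of the library (RPM). Gata1 tags were 25 bases long and IgG tags 36, so antibody and tag length cannot be told apart in any Gata1 to IgG ratio.

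Gata1 tags piled up at the listed sites while IgG tags stayed few. Within 250 bp of the site centres lay 153582 Gata1 tags, 2.30% of the library (2.28 to 2.31), and 11657 IgG tags, 0.215% (0.211 to 0.218). The ratio of the 2 shares was 10.7 (10.5 to 10.9). It depended on the window far more than on counting error, at 16.9 within 100 bp of the centres and 6.70 within 500 bp. The caller picked these sites from the same 2 libraries, so this fold describes the list and tests nothing. Each library could also be set against its own surroundings, which needs no scaling between libraries. The sites were picked for their Gata1 tags, so this ratio describes the list as well. Against its flanks, 2 to 5 kb to either side, Gata1 was 9.86 times as dense at sites (9.80 to 9.93) and IgG 1.54 times (1.51 to 1.57). The control was thus raised at the sites too, by far less than Gata1. Other listed sites were not removed from the flanks, and 28.7% of sites had another within 5 kb.

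Most sites had modest counts, and a small number had many. The median site had 22 distinct Gata1 tags (3.29 RPM), with 10% of sites at or under 14 tags, 10% at or over 49, and a range of 11 to 183. IgG had a median of 2 tags (0.368 RPM) and a highest value of 10. IgG had no tag at 841 sites (14.96%), 1 tag at 1572 and 2 at 1311, and 5 or more at 474 (8.43%). The 562 sites with the most Gata1 tags, 10% of the list, held 25.1% of all Gata1 tags at sites, and the 56 strongest held 4.28%. The caller listed no site under 11 tags, so this spread was in large part fixed by the calling and is a description of the list.

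With IgG counts under 3 set to 3, the number of counts that a count of 0 allows, 4633 sites (82.4%) stood at or past 4-fold over IgG. Within 100 bp of the centres, where counts are lower, 2317 sites did. Across fixed 500 bp bins of the genome, a size close to that of a site's window, 0.144% passed the same limit. The sites were chosen on this contrast, so nothing is read from that difference. The limit of 8-fold was passed by 1360 sites (24.2%), that of 16-fold by 254 (4.52%), and 15 sites lay under 2-fold. Because 66.3% of the sites had fewer than 3 IgG tags, the fold of a single site was limited by the depth of the control. The IgG minimum of 3 also meant that no site under 15 Gata1 tags in its window could reach 4-fold.

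**Figure D1:**
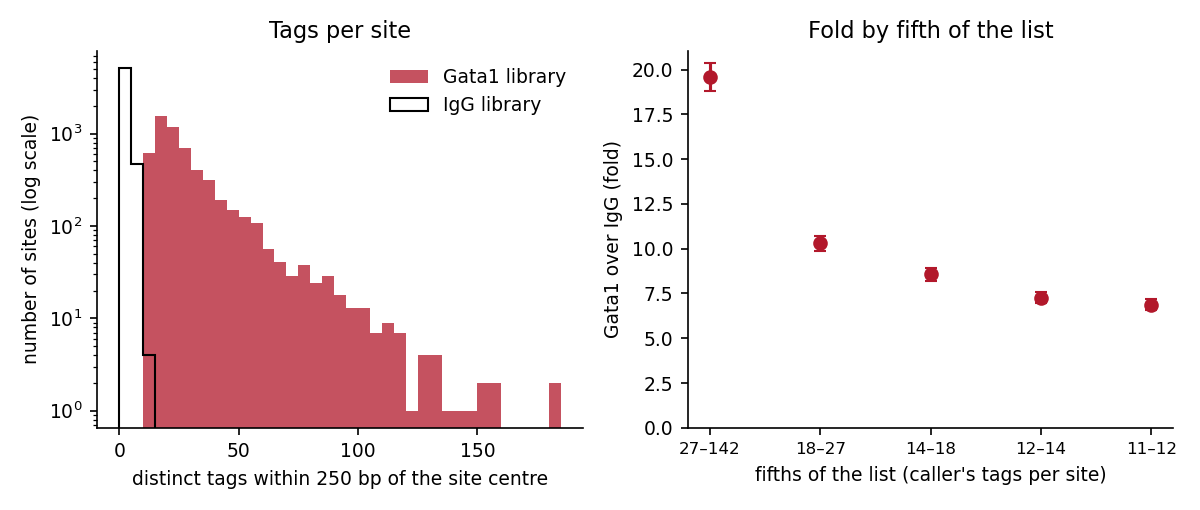
Left, number of Gata1 sites (log scale) by distinct tags within 250 bp of the centre, for the Gata1 library (filled) and the IgG library (outline); Gata1 ranges from 11 to 183 tags, IgG from 0 to 10. Right, Gata1 over IgG fold in 5 groups of 1124 sites, ordered by the caller's tags per site, with 95% counting intervals; the fold goes from 6.86 in the weakest group to 19.6 in the strongest.

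The list was also split into 5 groups of 1124 sites by the caller's tag number, a value the authors' caller set and that the list was built on. Mean Gata1 levels went from 2.34 RPM in the group of 11 to 12 tags to 8.12 RPM in the group of 27 to 142 tags. Mean IgG levels changed much less, from 0.341 to 0.415 RPM, and the IgG median was 0.368 RPM in each of the 5 groups. The fold over IgG was 6.86 (6.55 to 7.18) in the weakest group and 19.6 (18.8 to 20.4) in the strongest. Between them it was 7.27, 8.56 and 10.3. The share of sites at or past 4-fold fell from 99.6% in the strongest group to 48.2% in the weakest. No site under 15 Gata1 tags in its window could pass, so this fall was in part fixed by the IgG minimum. At the caller's minimum of 11 tags stood 775 sites (13.8%), with a median of 15 Gata1 and 2 IgG tags in the window, and 337 of them (43.5%) were at or past 4-fold.

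Summed over all sites, the centres of Gata1 tags formed 1 peak. Its width at 50% of its height over the level 1.5 to 2 kb away was 246 bp. It reached from 121 bp on the left to 125 bp on the right of the site centre. Tags of both strands were counted without a shift, so this width includes the distance between the strands. The top stood at 14.5 RPM per kb, 13.96 times the level at its foot. Width hardly varied with strength: it was 240 bp in the strongest group and 231 to 261 bp in the other 4 groups. The sites as the caller reported them were narrower, with a median of 60 bp, 40 bp at 33.5% of sites, and over 200 bp at 864 sites (15.4%).

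Forward tags lay to the left and reverse tags to the right of the site centres. Of the forward tags starting within 250 bp of a Gata1 site, 72.7% started left of the centre, and 73.6% of the reverse tags started right of it. The caller required tags on both sides of a site, so this arrangement was in large part fixed by the calling and is a description. The numbers of the 2 strands were nearly equal, with 49.9% forward. The distance between forward and reverse 5′ ends that gave the most pairs was 117 bp within 1 kb of sites and 112 bp over the whole of the 19 chromosomes. The highest points of the summed strand profiles, smoothed over about 50 bp, were closer, 84 bp apart. All of these lie below the fragment length of 235 bp that the caller estimated, per the file headers. Within 500 bp of the centres the offset was 119 bp in the strongest group of sites and 96 to 113 bp in the others.

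IgG showed the reverse arrangement at the same sites. Only 43.2% of its forward tags within 250 bp started left of the centre and 43.8% of its reverse tags right of it. Its tags were still paired at a distance, most often 128 bp within 1 kb of sites and 137 bp over the genome. IgG was an input to the site calls, so its arrangement around them is a description. Over the genome, both libraries had a further rise in pairs at the length of the tag itself. It stood at 1.54 times the level at 400 to 500 bp for Gata1 and 1.499 times for IgG. At the genome offsets of 112 bp for Gata1 and 137 bp for IgG the values were 1.82 and 1.68 times.

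**Figure D2:**
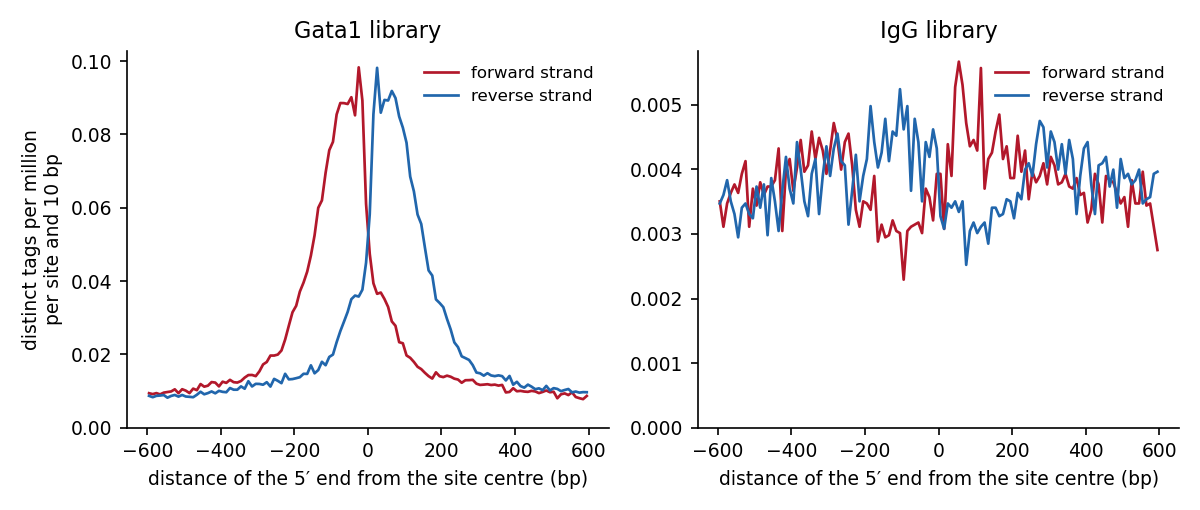
Distinct tags per 1000000 library tags, per site and 10 bp, against the distance of the tag's 5′ end from the site centre, summed over 5620 Gata1 sites, with forward and reverse strands apart; the scales of the 2 panels differ. Gata1 forward tags lie mostly left and reverse tags mostly right of the centre (72.7% and 73.6% within 250 bp). IgG is far lower, with the sides exchanged (43.2% and 43.8%). Sites were called from both libraries, so these arrangements are a description.

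Single strong sites had the same shape. Of the 535 sites with 50 or more Gata1 tags, 418 had no other site within 1 kb. At these the median reverse 5′ end lay a median of 122 bp to the right of the median forward one, with quartiles of 110 and 138 bp, and 1 of the 418 had a value of 0 or below. Since the caller required tags on both sides of each site, this order was in large part fixed by the calling. The span that held the middle 80% of the tags within 500 bp had a median of 322 bp (quartiles 273 and 385 bp). The forward share had a median of 50% and a range of 32.1% to 68.1%.

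Duplicates were fewer in the Gata1 library than in IgG, but they rose at Gata1 sites. Of all Gata1 tags on chromosomes 1 to 19, 11.1% repeated a position and strand already seen, against 22.8% of IgG tags. At sites the Gata1 share was 15.5% (15.3 to 15.6), against 12.3% (12.2 to 12.5) in the flanks and 10.98% outside the site windows. IgG had 21.1% (20.4 to 21.8) at the same sites and 23.7% (23.4 to 23.9) in the flanks. The Gata1 share rose with strength, from 11.9% (11.4 to 12.3) in the weakest group of sites to 19.4% (19.1 to 19.6) in the strongest. Tag density rose over the same groups, and the parts of density and of amplification in these duplicates were not tested.

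Few positions were copied many times. At Gata1 sites 84.6% of the positions had 1 copy, 13.0% had 2 and 2.39% had 3 or more, with a highest value of 11. Over the 19 chromosomes 297 Gata1 positions had 10 or more copies (highest 138), and 2 of those lay at sites. IgG had 1236 such positions, with up to 1779 copies, and none at Gata1 sites. Keeping all tags raised the fold at sites from 10.7 to 11.5.

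The enrichment fell off within a few kb of the sites. In the 1 kb around the centre Gata1 stood at 5.33 RPM per kb against 0.775 for IgG, a fold of 6.88 (6.79 to 6.97). At 1 kb away the fold was 2.26 (2.23 to 2.28), at 2 kb 1.85, at 5 kb 1.59 and at 20 kb 1.41 (1.39 to 1.43). These values include the tags of neighbouring sites. At the 2656 sites with no other site within 25 kb the fold was 5.88 (5.77 to 5.999) at the centre, 1.67 (1.64 to 1.70) at 1 kb, 1.35 at 2 kb, 1.25 at 5 kb and 1.17 (1.14 to 1.20) at 20 kb. Beyond 25 kb of every site, where 85.9% of Gata1 tags lay, the fold was 0.946 (0.945 to 0.947). The surroundings of sites, isolated ones included, thus held more Gata1 tags than the rest of the genome in proportion to IgG.

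**Figure D3:**
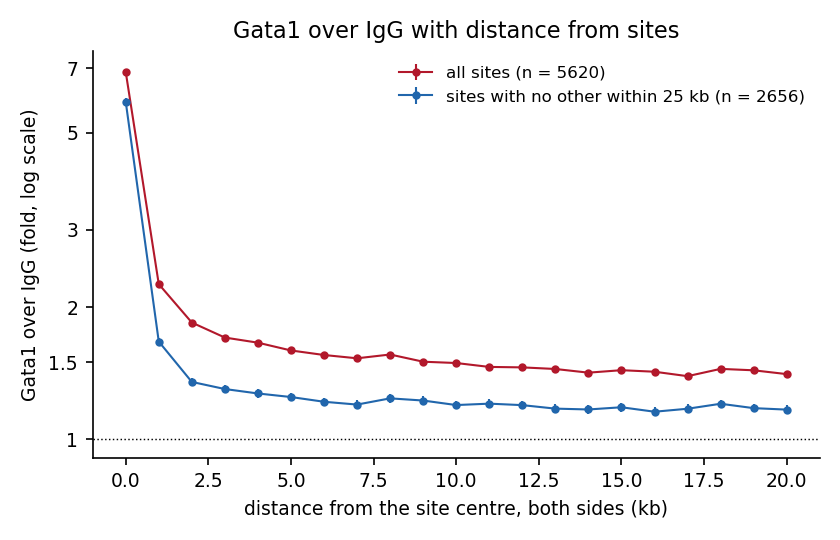
Gata1 over IgG fold (log scale) in 1 kb steps from the site centre, both sides together, with 95% counting intervals; red, all 5620 sites; blue, the 2656 sites with no other site within 25 kb. Both curves drop steeply within 2 kb and then level off above 1, at 1.41 and 1.17 at 20 kb.

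The distance between neighbouring Gata1 sites varied widely. The nearest other site was a median of 21.1 kb away, within 1 kb for 682 sites (12.1%), within 5 kb for 1613 (28.7%) and within 100 kb for 4420 (78.6%). The 1613 sites with a neighbour within 5 kb had a median of 3.59 RPM (quartiles 2.69 and 5.53), and the isolated ones 3.14 RPM (2.54 and 4.18). Mean IgG levels were 0.382 and 0.395 RPM. The windows of 354 sites overlapped those of a neighbour, which adds the same tags to both. No test was made of the difference.

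Fixed 1 kb bins gave a view that does not start from the list. Of 2462427 bins, 2199389 held at least 1 tag of either library, with a mean of 3.04 Gata1 and 2.47 IgG tags. The limit of 4-fold, with IgG counts under 3 set to 3, was passed by 6609 bins, 0.300% of them. This count rests on the settings: 120032 bins passed with IgG counts of 0 set to 1 and no other minimum, and 10966 with all tags kept. The shares that follow are for the 6609. The same limit in the other direction, IgG over Gata1, was passed by 0.0594% (1306 bins). In that direction Gata1 counts under 3 were set to 3. The IgG library had fewer distinct tags, so a bin needed fewer tags to pass in that direction. The 2 shares are therefore not alike. For Gata1 over IgG, the IgG minimum of 3 meant that no bin under 15 Gata1 tags could pass, so all called bins had 15 or more. Across bins the tags of the 2 libraries went together weakly, with Pearson r = 0.374 and Spearman rho = 0.136 over 2199389 bins, which share the assembly and its repeats.

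Called bins and listed sites overlapped in part. Of the 6609 called bins, 3908 (59.1%) held a site centre, 689 (10.4%) lay within 1 kb of one, and 2012 (30.4%) lay farther from every site. In the other direction 4063 of the 5620 sites (72.3%, 71.1 to 73.5) fell in a called bin. The 1557 sites outside called bins had a median of 18 Gata1 and 3 IgG tags in their own window, against 25 and 2 for the others. They lay within 100 bp of a bin edge in 31.5% of cases, against 16.1%, and 933 of them passed 4-fold in their own window.

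The more Gata1 tags a bin held, the more often it held a site, up to the class of 50 to 99 tags. The sites were called from the same Gata1 tags with a minimum of 11, so bins with few tags could hardly hold one and the rise was in large part fixed by the calling. A site was present in 1.51% of bins with 10 to 14 Gata1 tags, 42.1% of those with 20 to 29, and 84.7% of the 737 with 50 to 99. Among the 112 bins with 100 tags or more, 76 (67.9%) held a site. In that class 37 bins had 20 or more IgG tags. The bin with the most Gata1 tags, chromosome 17 from 39452001 to 39453000, had 1451 Gata1 and 580 IgG tags, a fold of 2.03, and held no site. Its 5 neighbours between 39451001 and 39457000 had 530 to 1412 Gata1 tags and folds of 1.21 to 2.39. On chromosome 2 from 98467001 to 98468000, 238 Gata1 tags faced 488 IgG tags, a fold of 0.396. The 112 bins with 50 or more IgG tags took up 0.229% of Gata1 and 0.234% of IgG tags, and none was called or held a site. Among bins with a site, the one with the most Gata1 tags lay on chromosome 16 from 32429001 to 32430000, with 229 Gata1 and 2 IgG tags.

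**Figure D4:**
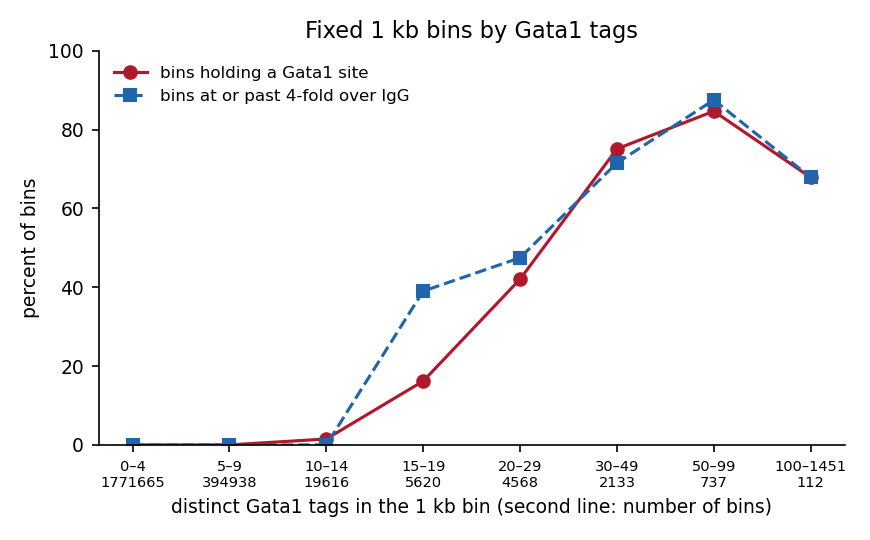
Percent of 1 kb bins that hold a Gata1 site (circles) and that stand at or past 4-fold over IgG (squares), by the number of distinct Gata1 tags in the bin, with the number of bins under each class. Both shares rise to 84.7% and 87.5% in the class of 50 to 99 tags and are 67.9% in the last class; sites were called from the same tags, so the rise is a description.

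Called bins far from sites had wider spans of tags, by their medians, than those that held one. The bins over 1 kb from every site had a median of 18 Gata1 tags against 30 in bins with a site, and medians of 3 IgG tags in both. With counts alike, at 15 to 19 Gata1 tags, the middle 80% of tags spanned a median of 432 bp in the 559 bins with a site and 613 bp in the 1305 far ones. The median reverse 5′ end lay right of the median forward one in 84.3% and 66.5% of them, by a median of 107 and 65.5 bp. At 45 to 65 Gata1 tags, with 543 bins with a site and 12 far ones, the strand medians were closer, 109 and 97.3 bp apart, and in the right order in 91.9% and 83.3%. The spans there were 417 and 548 bp, and the median IgG counts 4 and 8. The caller requires tags on both sides of a site, so this contrast was used in making the list and is a description.

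The far bins with the most Gata1 tags had from 47 to 65, against 6 to 11 of IgG. The first, chromosome 17 from 35449001 to 35450000, had 65 Gata1 and 8 IgG tags, a fold of 6.60 (3.16 to 15.9), and lay 2.60 kb from the nearest site. The second, chromosome 6 from 67196001 to 67197000, had 62 and 11 tags, a fold of 4.58 (2.39 to 9.64), 79.8 kb from a site. The third, chromosome 9 from 59089001 to 59090000, had 58 and 9 tags with 1.69% duplicates, 286 kb from a site. These 3 bins carried tags of both strands in similar numbers. The other 7 of the 10 were chr15:78399001-78400000, chr12:4241001-4242000, chr11:86574001-86575000, chr2:6181001-6182000, chr2:118942001-118943000, chr3:51312001-51313000 and chr7:28091001-28092000. Their folds ranged from 4.24 to 6.63. In 2 of the 10, those on chromosomes 11 and 7, the reverse tags lay to the left of the forward ones by their medians, by -106 and -118 bp.

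The chromosomes differed in the number of sites and much less in the fold at them. Chromosome 11 had 505 sites, 4.25 per Mb between its first and last tag, and chromosome 19 had 231, or 3.97 per Mb. The median chromosome had 2.38 per Mb, and chromosomes 14 and 1 had the lowest densities, 1.47 and 1.54. Chromosome 11 held 8.99% of the sites with 5.77% of the Gata1 tags. The fold over IgG at sites ran from 9.70 (8.84 to 10.7) on chromosome 19 to 11.6 (10.4 to 13.1) on chromosome 18. The intervals of 18 of the 19 chromosomes held the value of the whole list, and that of chromosome 19 ended below it by less than the rounding of these values. Chromosome 19 also had the lowest level over its own flanks, 7.42 times (7.18 to 7.67), against 9.24 to 11.4 on the others. These flanks can hold tags of neighbouring sites. The median site had 3.14 to 3.51 RPM on every chromosome.

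Outside the site windows the libraries did not keep 1 ratio over the chromosomes. Gata1 over IgG was 0.929 (0.925 to 0.933) on chromosome 3 and 1.06 (1.06 to 1.07) on chromosome 11. Over the 19 chromosomes this ratio went with the density of sites, Pearson r = 0.921 and Spearman rho = 0.875. Without chromosomes 11 and 19, the 2 farthest from the median density, the coefficients were 0.877 and 0.826. With tags beyond 25 kb of every site only, they were 0.872 and 0.839 over 19 chromosomes, and the ratios ran from 0.905 to 1.02. The fold at sites went the other way, r = -0.452 and rho = -0.344, and without the same 2 chromosomes r was -0.167. The points share 2 libraries that differ in tag length and depth, and the parts of base composition and mappability in these relations were not tested.

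**Figure D5:**
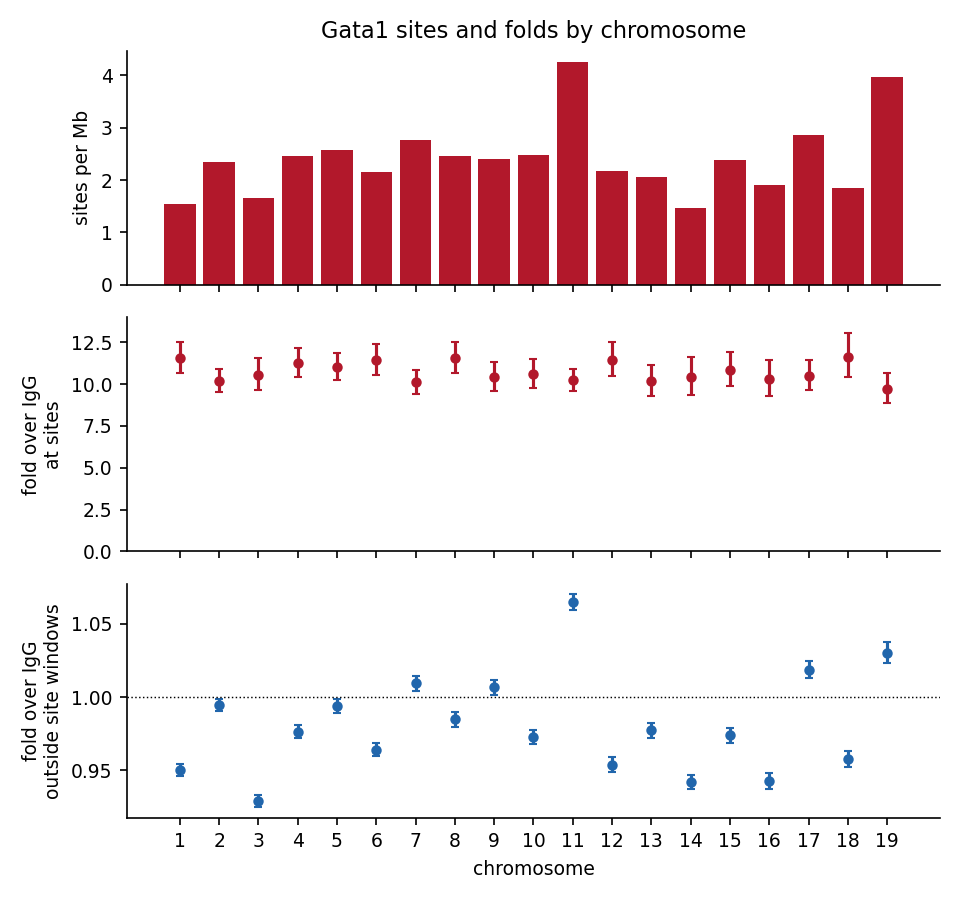
For chromosomes 1 to 19: top, Gata1 sites per Mb (bars); middle, Gata1 over IgG fold at sites; bottom, the same ratio outside the site windows, with 95% counting intervals (the bottom axis does not start at 0). Density is highest on chromosomes 11 and 19, the middle row stays between 9.70 and 11.6, and the bottom row is highest on chromosome 11.

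The 10 strongest sites had 134 to 183 distinct Gata1 tags, against 0 to 9 of IgG. The site on chromosome 16 from 32429511 to 32429551 had 183 Gata1 tags (27.4 RPM), 88 forward and 95 reverse, while IgG had none. With the IgG count raised to 3 the fold was 49.5, a value without an interval. The site on chromosome 1 from 182687631 to 182687671 also had 183 tags, but IgG had 9, which gave a fold of 16.5 (8.51 to 36.7). These 2 sites were equal in Gata1 and differed in the control, so folds did not follow the order of the tags.

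The next were on chromosome 18 from 32685591 to 32685651, with 158 Gata1 and 2 IgG tags and a fold of 64.2 (17.5 to 534). Chromosome 8 from 87591751 to 87591791 followed with 155 and 2 tags, and a fold of 62.9 (17.1 to 524). On chromosome 15 from 38488051 to 38488251, 154 tags faced 6 of IgG, a fold of 20.8 (9.36 to 57.7). This site had the highest level over its own flanks of the 10, 87.9 times (55.5 to 146).

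Chromosome 14 from 68271811 to 68271871 had 153 and 4 tags, and a fold of 31.1 (11.9 to 115). Its flanks were the richest of the 10, with 88 Gata1 tags, so that it stood 20.8 times (15.9 to 27.4) over them. On chromosome 8 from 108710291 to 108710331 there were 147 and 4 tags, and on chromosome 1 from 134195531 to 134195571 144 and 4. The site on chromosome 11 from 32145831 to 32145871 had 139 Gata1 tags and 1 of IgG, a ratio of 113 with a very wide interval of 19.9 to 4491. The tenth, chromosome 1 from 173117691 to 173117731, had 134 and 6 tags.

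All 10 had the 2 strands set apart in the usual order, by 109 to 146 bp between strand medians, and the 80% span was 239 to 435 bp. That order, too, was in large part fixed by the calling. Duplicates made up 22.3% to 36.01% of their tags, above the 15.5% of all sites, and no position had more than 6 copies. Where IgG had tags, the folds overlapped widely in their intervals, so these folds give no order. No interval was given for the fold of the chromosome 16 site, which had no IgG tag.

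At the other end, the 5 sites with the lowest folds had 14 or 15 Gata1 and 7 IgG tags each. Those with 14 were chr4:124304791-124304831, chr9:107834291-107834351 and chr16:75649491-75649531, and those with 15 were chr9:64610211-64610351 and chr9:83631411-83631471. The folds were 1.62 (0.613 to 4.76) for the 14-tag sites and 1.74 (0.668 to 5.05) for the 15-tag ones, so that none was distinguishable from IgG at this depth within 250 bp of the centre. The authors' deposited table gives them folds of 9.03 to 10.7, values set by the caller with a formula that the file headers do not give. Against their own flanks 4 of the 5 stood higher, by 5.78 (2.82 to 11.3), 15.2 (6.43 to 37.1), 3.74 (1.95 to 6.80) and 7.81 times (3.79 to 15.6) in the order chr4:124304791, chr16:75649491, chr9:64610211 and chr9:83631411. The fifth, chr9:107834291, had 136 Gata1 tags in its flanks and stood 1.23 times over them (0.657 to 2.14). The sites were picked for their Gata1 tags, so these ratios over flanks are a description. Their intervals do not allow for that choice.

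The highest IgG counts at any site were 10 tags, at 4 sites. These were chr1:13645551-13645911, chr8:89514391-89514771, chr10:79668171-79668211 and chr15:98395311-98395931. Gata1 had 41, 37, 39 and 30 tags there, with folds of 2.44 to 3.33. All 4 folds had intervals above 1. The caller picked the sites from the same libraries and the intervals do not allow for that choice, so this is a description. On chromosome 10 the strands were uneven, 10 forward against 29 reverse tags. The fifth by IgG tags was the chromosome 1 site of 183 Gata1 tags.

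Sites at the median of the list looked as follows. On chromosome 1 from 33616791 to 33616831 there were 22 Gata1 tags, 9 forward and 13 reverse, and none of IgG. With the IgG count raised to 3 the fold was 5.96, a value without an interval. From 39699271 to 39699311 the counts were the same. From 34383951 to 34384231, 22 tags faced 2 of IgG, a fold of 8.93 (2.20 to 78.4) as counted. With the IgG count raised to 3 this fold was 5.96 as well. All 3 had Gata1 tags on both strands.

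In the same measures the Gata1 library was set beside the other 2 antibodies of the series, each at its own listed sites. The Gata1 peak was the widest, 246 bp against 214 bp for Ldb1 and 195 bp for Tal1, and its strand offset of 117 bp lay between 122 and 106 bp. It stood least over its foot, 13.96 times against 24.5 and 29.2. The share of distinct tags at own sites was 2.30%, against 3.17% (3.16 to 3.19) for Ldb1 and 4.20% (4.18 to 4.22) for Tal1. Duplicates at own sites were 15.5% for Gata1, 40.3% for Ldb1 and 45.4% for Tal1. The libraries differed in the same order over all of chromosomes 1 to 19, with 11.1%, 28.2% and 37.0%. The 3 lists were called at different depths, with 1 library each, so these differences between libraries were not tested.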

How the data were processed

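Total bone marrow was profiled by ChIP-seq with 1 library each for Gata1 and IgG. The authors deposited aligned tags, with mm8 named in the submitters' processing notes as the assembly. The aligner is not given in the sources used here. Sites were called with SISSRs 1.4 against IgG with 1 tag per position, windows of 20 bp, p of 0.001, e-value of 10 and at least 11 tags, per the file headers. The deposited list gives a tag count, a fold and a p-value per site, all set by the authors' caller and used here only to describe and order the list.

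Counts, ratios with exact conditional intervals and shares with Clopper-Pearson intervals (95%) were computed with scipy 1.17.1, pandas 2.3.3 and numpy 2.4.6 under Python 3.11.15, with figures by matplotlib 3.10.9. A count of 0 allows up to 3 counts, which is 0.448 RPM for Gata1 and 0.552 RPM for IgG. Widths came from 10 bp steps smoothed over 50 bp. Offsets came from the number of strand pairs at each distance from 60 bp, smoothed over 21 bp. The code was tested on simulated tags. Named are the 10 sites with the most Gata1 tags, the 5 with the most IgG tags, the 5 with the lowest fold, the first 3 at the median, and the 10 called bins over 1 kb from sites with the most Gata1 tags. Of sites within 1 kb of each other only the first by each rule was kept, and 1 bin per 5 kb. The members and rules were chosen with earlier results of these data known. The X chromosome lies outside the rule. Alternatives covered duplicates, windows, scaling, tag placement, site subsets, folds, the IgG minimum and bins.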

Additional observations from a re-analysis of the deposited data

Results flagged for a closer look

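Chromosome X lies outside chromosomes 1 to 19 and entered no comparison, yet it carried signal above IgG. At its 71 listed Gata1 sites 1599 Gata1 and 114 IgG tags gave a fold of 11.4 (9.42 to 13.9), with the libraries scaled on chromosomes 1 to 19. These sites were called on the same contrast, so the fold is a description. Outside the site windows the ratio on chromosome X was 0.806 (0.802 to 0.810), below the 0.929 to 1.06 of the other chromosomes. Chromosome X had 4.70 Gata1 tags per 100 distinct tags on chromosomes 1 to 19, against 5.798 for IgG, 4.91 for Ldb1 and 4.81 for Tal1. Its site density was 0.437 per Mb.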

How the results depend on the processing

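Each choice was changed alone, which gave 72 values, of which 31 stayed within the counting interval of the value reported (counts within 1.5 times, widths and offsets within 10 bp) and 41 did not. With all tags kept, the share of Gata1 tags at sites was 2.41%, the fold over IgG 11.5, the level over own flanks 10.2, and 10966 bins were called, holding 75.4% of sites. With 100 bp on each side of the centre these were 1.404%, 16.9 and 14.8, with 2317 sites past 4-fold and chromosomes from 14.3 to 19.5. With 500 bp they were 2.83%, 6.70 and 6.36, with chromosomes from 5.97 to 7.62. Scaling on tags over 5 kb from sites gave a fold of 11.1 and 74.1% of sites in called bins. Moving 5′ ends by 100 bp gave 2.31% and 73.7%. The upper 50% of the list gave 1.58%, 13.7 and 12.5, with 2714 sites past 4-fold, 86.8% in called bins, 17.0% duplicates and chromosomes from 12.2 to 16.1. A limit of 2-fold called 53233 bins with 97.6% of sites. A limit of 8-fold called 1360 sites and 1345 bins with 24.2% of sites. With IgG counts of 0 set to 1, 120032 bins were called, with 74.7% of sites. The share of sites in called bins was 73.5% with the grid moved by 500 bp, 70.6% in 500 bp bins and 57.1% in 2 kb bins. The width was 262 bp in 50 bp steps, the offset 84 bp between the highest points of the strands, and duplicates within 100 bp of sites 16.6%. Leaving out sites of 10 or more IgG tags moved none of these values beyond those limits. No paired analysis was possible because there was 1 library a side, and for the same reason no replicate could be left out. Depth limits single sites, since 66.3% of them had fewer than 3 IgG tags.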
